A study of Mus musculus with 3 samples.

Results

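Monocytes and monocyte-derived dendritic cells of the ascending aorta were selected on their own transcript counts, by a set of limits on marker genes, in 3 single-cell RNA libraries. A barcode, the tag of 1 droplet and nominally of 1 cell, counted as a member when it held 600 to 5000 detected genes and at most 10% mitochondrial transcripts. It also had to carry *Ptprc* (the leukocyte antigen CD45) and at least 3 UMIs of *Ccr2*, *Cd209a* and *Ly6c2* together per 10000 UMIs of the barcode. A UMI is a molecular identifier that counts each captured transcript once. Fewer than 10 UMIs per 10000 of the 3 C1q genes (*C1qa*, *C1qb*, *C1qc*), fewer than 100 of 6 smooth muscle genes, fewer than 20 of *Dcn* and fewer than 50 of *S100a8* and *S100a9* were allowed, and *Cd3d*, *Cd3g* and *Cd79a* had to be at 0. These limits left 371 members among 26158 barcodes of sufficient quality.

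The WT library came from male C57BL/6J littermates without the mutation, and the mgR library from male Fbn1mgR/mgR mice, which are homozygous for a hypomorphic allele of *Fbn1* (fibrillin-1, an elastic fiber protein) and serve as a model of Marfan syndrome with dissecting aneurysm. The mgR-LOS library came from male Fbn1mgR/mgR mice given losartan, a blocker of the angiotensin II type I receptor, at 0.6 g/L of drinking water from postnatal day 16. All mice were sampled at postnatal day 45, on the same C57BL/6J strain. For the mgR library the labels do not say if vehicle was given. Aortas of each arm were pooled before elastase and collagenase digestion and red cell lysis, so each arm is 1 library with no replicates. All intervals below are 95% intervals that cover counting error only, and no difference between arms was tested. *Fbn1* summed over all retained barcodes was 361 in WT (357 to 366), 150.1 in mgR (148 to 152) and 117 in mgR-LOS (115 to 119), in counts per 1000000 UMIs (CPM), lower in both mutant libraries than in WT. In the members themselves *Fbn1* was near the limit of detection, with 0, 6 and 2 UMIs.

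Classical monocytes leave the bone marrow by the chemokine receptor CCR2, carry the surface protein Ly6C and enter inflamed tissue, where they may become macrophages or antigen-presenting cells. Monocyte-derived dendritic cells lose Ly6C, gain the C-type lectin CD209a and load peptides onto MHC class II molecules for T cells. In the aneurysmal aorta such recruited cells stand beside resident macrophages, which are rich in complement C1q. Type I interferon induces a shared set of antiviral genes in monocytes through STAT and IRF factors that bind a repeated GAAA element.

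A pair of promoters shows a motif that MHC class II promoters share with many other promoters, and 3 show the element of interferon-stimulated genes. The sequences are those of RefSeq on GRCm38.p6, 120 bases long and read on the strand of each gene, and capitals mark the motif. For the MHC class II genes *H2-Aa* (minus strand of chr17:34287844-34287963) and *H2-Eb1* (plus strand of chr17:34305727-34305846) the capitals are GATTGG or its complement CCAATC.
H2-Aa: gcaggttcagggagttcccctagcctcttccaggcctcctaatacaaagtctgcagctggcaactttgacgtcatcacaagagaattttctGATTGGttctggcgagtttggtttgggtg
H2-Eb1: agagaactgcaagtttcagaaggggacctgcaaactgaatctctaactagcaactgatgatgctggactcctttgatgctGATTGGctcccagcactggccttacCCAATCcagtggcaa
For *Ifit1* (plus strand, chr19:34640739-34640858), *Ifit3* (plus strand, chr19:34583335-34583454) and *Rsad2* (minus strand, chr12:26456508-26456627) the capitals are TTTCNNTTTC, the complement of GAAANNGAAA.
Ifit1: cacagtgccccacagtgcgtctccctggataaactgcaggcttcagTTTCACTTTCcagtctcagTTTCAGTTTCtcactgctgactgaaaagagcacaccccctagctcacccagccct
Ifit3: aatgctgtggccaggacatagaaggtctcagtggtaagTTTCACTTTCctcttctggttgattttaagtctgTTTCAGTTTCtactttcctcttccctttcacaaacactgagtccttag
Rsad2: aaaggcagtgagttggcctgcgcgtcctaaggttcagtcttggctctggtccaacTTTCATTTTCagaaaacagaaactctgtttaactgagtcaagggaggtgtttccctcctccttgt
Of the 11 MHC class II genes listed here, 8 had a promoter sequence, and all 8 held GATTGG on either strand within 250 bases before the start, against 14.6% of 32851 promoters. Of 14 interferon-stimulated genes, 9 had a sequence and 5 of these (*Isg15*, *Ifit1*, *Ifit3*, *Rsad2* and *Bst2*) held GAAANNGAAA on either strand, against 2.98% of all promoters. *Ifit2*, *Irf7*, *Oasl2* and *Ifi44* did not hold these letters in that window. These matches are descriptions of sequence, and binding was not measured.

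Members were rare in the WT aorta and more frequent in both mutant aortas. The WT library held 7 members among 5361 retained barcodes (0.131%, 0.0525 to 0.269), the mgR library 254 of 8076 (3.15%, 2.78 to 3.55) and the mgR-LOS library 110 of 12721 (0.865%, 0.711 to 1.04). The intervals of the 3 shares did not overlap. The share was 3.01 percentage points higher in mgR than in WT (2.63 to 3.42) and 2.28 points lower in mgR-LOS than in mgR (difference -2.28, -2.71 to -1.88). Fewer cells of a type and lower recovery of that type after digestion cannot be told apart in these counts, and smooth muscle barcodes made up 69.7%, 42.3% and 65.8% of retained barcodes in WT, mgR and mgR-LOS.

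Among leukocytes the losartan arm differed less. Of the 140, 1769 and 836 barcodes with *Ptprc*, members were 5% (2.03 to 10.0) in WT, 14.4% (12.8 to 16.1) in mgR and 13.2% (10.9 to 15.6) in mgR-LOS. The WT share lay below both mutant shares, and the mutant shares overlapped. The difference between mgR-LOS and mgR was -1.20 percentage points (-3.93 to 1.71), so neither a fall nor a small rise could be told from 0 at this depth. C1q-rich leukocytes carried *Ptprc*, at least 10 C1q UMIs per 10000 and the same limits on smooth muscle, *Dcn*, neutrophil, T and B cell genes, with no limit on *Ccr2*, *Cd209a* and *Ly6c2*, and numbered 79, 857 and 432. Of these, 10, 253 and 67 also held at least 3 UMIs of those marker genes per 10000. For every 100 of them there were 8.86 members in WT, 29.6 in mgR and 25.5 in mgR-LOS.

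**Figure D1:**
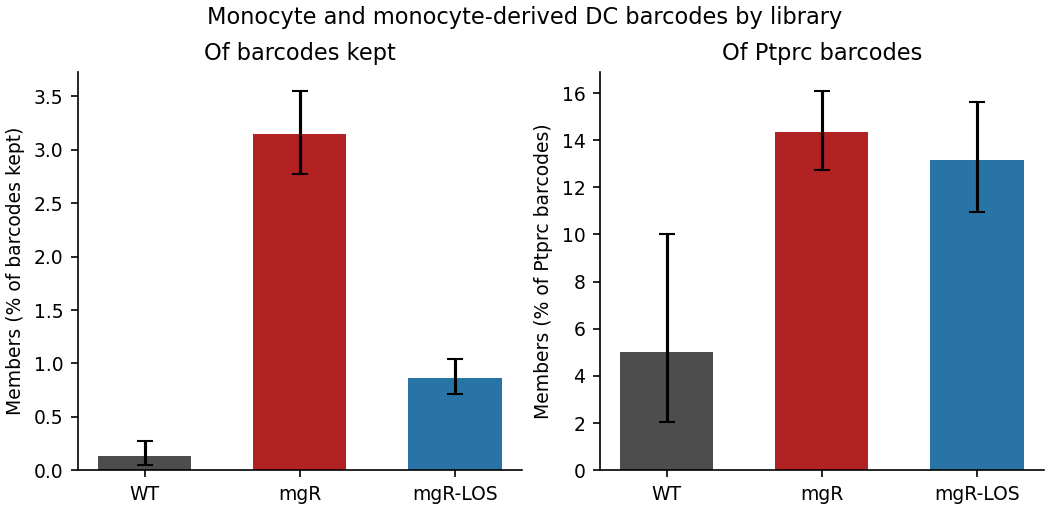
Members as a percentage of barcodes kept (left) and of *Ptprc* barcodes (right) in the WT, mgR and mgR-LOS libraries, with exact binomial 95% intervals as error bars. Of all barcodes the mgR share stands above both others (3.15% against 0.131% and 0.865%), whereas of *Ptprc* barcodes the bars of mgR and mgR-LOS have overlapping intervals.

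The count of members depended on where the limits fell for a few barcodes. Members with 3 to 4 UMIs of the marker genes per 10000 numbered 1, 15 and 8 in WT, mgR and mgR-LOS, and 2, 18 and 8 barcodes that met every other limit lay just outside at 2 to 3. Members with 5 to 10 C1q UMIs numbered 2, 12 and 7, while 0, 16 and 3 barcodes were kept out at 10 to 20. No C1q UMI was seen in 5 of 7, 192 of 254 and 76 of 110 members. Members held a median of 15324 UMIs in WT, 8285 in mgR and 8323 in mgR-LOS. The summed UMIs were 90331, 2253895 and 966784, which places the limit of 3 UMIs at 33.2, 1.33 and 3.10 CPM, so WT levels are the least precise.

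The label of the gate was set beside its 5 markers. *Ccr2* (chr9:124101950-124113557), *Cd209a* (chr8:3743397-3748984) and *Ly6c2* (chr15:75108158-75111970) were part of the rule and are given as a description. *Ccr2* summed to 786, 823 and 1054 CPM in WT, mgR and mgR-LOS, a similar level in each. *Cd209a* summed to 22.1, 687 and 384 CPM, and *Ly6c2* to 33.2, 1146 and 20.7 CPM. The rule did not use *H2-Aa*, an MHC class II chain, nor *Lyz2*, the lysozyme of monocytes and macrophages. After each barcode was thinned to 1000 UMIs, *H2-Aa* was seen in 85.7%, 72.0% and 89.1% of members, and *Lyz2* in 71.4%, 66.9% and 75.5%. The same thinning left *H2-Aa* in 0.322%, 2.55% and 0.933% of smooth muscle barcodes and *Lyz2* in 0.375%, 3.90% and 1.69%, which was taken as the background level without telling free RNA and doublets apart. Smooth muscle barcodes held medians of 14338, 14796.5 and 8563 UMIs. Without thinning, *H2-Aa* was seen in 85.7%, 76.4% and 91.8% of members and *Lyz2* in 71.4%, 85.0% and 86.4%.

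*Cd209a* and *Ly6c2* divided the members into groups that barely overlapped. At 3 UMIs per 10000 of each gene, the mgR members were 78 with *Cd209a* only, 83 with *Ly6c2* only, 5 with both and 88 with neither. The mgR-LOS members were 31 with *Cd209a* only, 3 with *Ly6c2* only, 0 with both and 76 with neither. All 7 WT members were below that level for both genes. Members below it for both are called *Ccr2*-alone barcodes below, although 1 of 7 in WT, 0 of 88 in mgR and 2 of 76 in mgR-LOS also held fewer than 3 *Ccr2* UMIs per 10000. The WT barcode of that kind passed mainly through *Ly6c2* at 1.96 UMIs per 10000, carried 3 of 5 plasmacytoid dendritic cell genes and had 0 *Lyz2* UMIs, so in the other 6 WT members the names monocyte and monocyte-derived dendritic cell rest on *Ccr2*. Another WT member, with 3030 UMIs, had 0 UMIs of both *H2-Aa* and *Lyz2*, as had some *Ccr2*-alone and some *Ly6c2*-only barcodes of mgR. These are ranges of 2 genes and not cell types. Both genes were part of the rule, which admits barcodes that carry either alone, so their separation is only a description. Barcodes with 2 to 4 UMIs per 10000, close to the limit, numbered 0, 12 and 8 for *Cd209a* and 0, 4 and 1 for *Ly6c2*. The plot of the 2 genes in each barcode shows this separation.

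**Figure D2:**
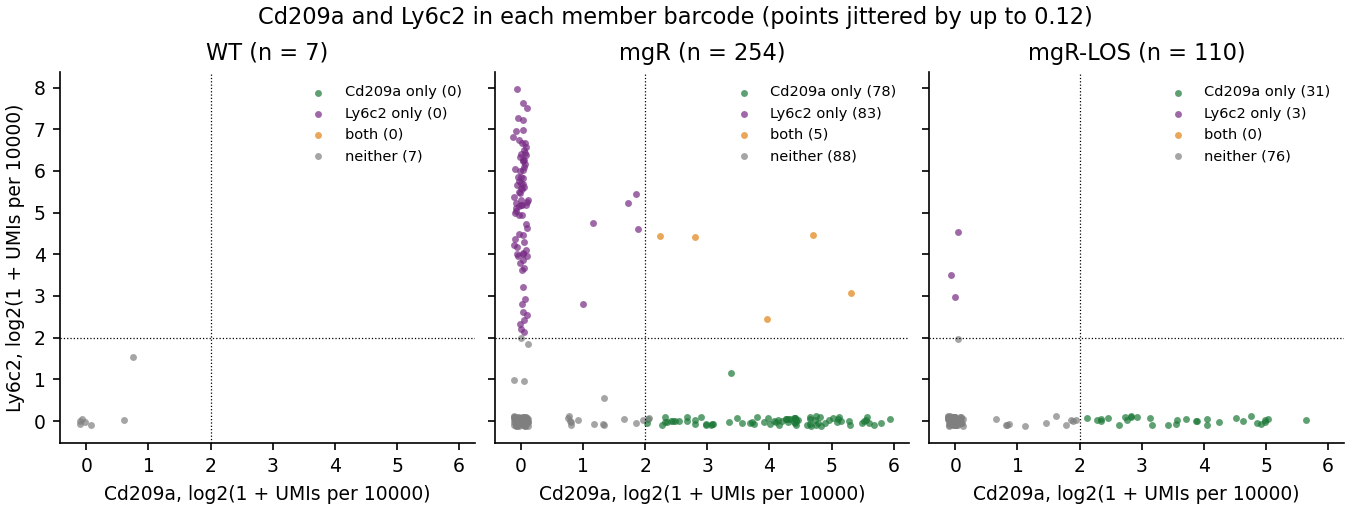
*Cd209a* (horizontal axis) and *Ly6c2* (vertical axis) in each member, both as log2(1 + UMIs per 10000), for the WT, mgR and mgR-LOS libraries. Dotted lines stand at 3 UMIs per 10000, colours give the 4 ranges, and only 5 mgR barcodes pass both lines while 3 mgR-LOS barcodes pass the *Ly6c2* line.

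The *Ly6c2* barcodes were the range that was nearly absent with losartan. *Ly6c2* and *Cd209a* helped to admit members, so the shares below describe the members as selected. *Ly6c2*-only barcodes were 32.7% of mgR members (26.9 to 38.8) and 2.73% of mgR-LOS members (0.566 to 7.76), a difference of -29.9 percentage points (-36.2 to -22.5). As a share of all retained barcodes they were 1.03% (0.819 to 1.27) in mgR and 0.0236% (0.00486 to 0.0689) in mgR-LOS. *Cd209a*-only barcodes were 30.7% of mgR members (25.1 to 36.8) and 28.2% of mgR-LOS members (20.02 to 37.6), and the difference of -2.53 points (-12.1 to 7.97) could not be told from 0. Of all retained barcodes, however, the *Cd209a*-only share was also lower with losartan, at 0.966% (0.764 to 1.20) in mgR and 0.244% (0.166 to 0.346) in mgR-LOS. *Ccr2*-alone barcodes made up the balance, 34.6% (28.8 to 40.8) of mgR members and 69.1% (59.6 to 77.6) of mgR-LOS members. Of all retained barcodes they pointed the other way, at 1.09% (0.875 to 1.34) in mgR and 0.597% (0.471 to 0.747) in mgR-LOS, so each of these ranges was less frequent with losartan on that base. Median depth was 9640 UMIs for *Cd209a*-only, 6594 for *Ly6c2*-only and 11003 for *Ccr2*-alone barcodes of mgR, so the *Ly6c2* barcodes were also the shallowest of these ranges. The 5 mgR barcodes with both genes had a median of 5251 UMIs.

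Within the mgR library the *Cd209a*-only barcodes carried the antigen presentation genes. Of 1677 genes with at least 100 CPM in either range, 135 (8.05%) were at least 2-fold higher in *Cd209a*-only than in *Ly6c2*-only barcodes and 337 (20.1%) at least 2-fold lower. The median ratio of all these genes was 0.883. All 10 measured MHC class II genes were higher, with a median ratio of 4.81. *H2-Aa* was 10798 against 2217 CPM (ratio 4.87, 4.58 to 5.18), *Cd74*, the invariant chain that escorts class II molecules, 21162 against 4836 CPM (4.38, 4.20 to 4.56), and *Ciita*, the transactivator of the class II promoters, 137 against 39.7 CPM (3.45, 2.15 to 5.81). *H2-DMb2*, part of the peptide exchange factor, was 166 against 5.68 CPM. Single *Ly6c2*-only barcodes ranged from 0 to 156 *H2-Aa* UMIs per 10000. Their sum therefore mixes barcodes without and with abundant class II transcripts, and the ratio does not describe each barcode. Of the 8 promoters described above, 7 belong to these 10 genes, and the other is that of *H2-Eb2*, which stayed under 100 CPM in both ranges (11.8 and 1.89 CPM).

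Dendritic cell genes went the same way. Of 11 measured genes on the monocyte-derived dendritic cell list, 9 were higher in *Cd209a*-only barcodes, 0 were lower, and the median ratio was 7.60. The classical monocyte list summed to 4227 CPM in *Cd209a*-only, 24068 in *Ly6c2*-only and 12784 in *Ccr2*-alone barcodes of mgR. The list name is therefore only a label, and whether these barcodes derive from monocytes or are other dendritic cells was not tested. The C-type lectin *Mgl2* was 1006 against 5.68 CPM (ratio 177, 60.4 to 862) and its relative *Clec10a* 491 against 41.6 CPM (11.8, 7.68 to 19.1). *Itgax*, the integrin CD11c, was 144 against 15.1 CPM, and *Irf4*, a factor of dendritic cell differentiation, 115 against 15.1 CPM (7.60, 3.69 to 18.1). *Irf8* pointed away from *Irf4*, at 23.5 against 392 CPM (0.0601, 0.0349 to 0.0973). *Ccr7*, the receptor that guides dendritic cells to lymph nodes, was 88.9 against 7.57 CPM. The genes with the largest ratios also held *Mt2* (501 against 7.57 CPM), a metallothionein, *Clec4b1* (473 against 11.4 CPM) and *Retnla* (460.0 against 30.3 CPM), a secreted resistin-like protein of alternatively activated macrophages.

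In sums over barcodes, the *Ly6c2*-only range carried the classical monocyte genes, and most matrix and protease genes were higher there too. All 16 classical monocyte genes were measured, 14 were at least 2-fold lower in *Cd209a*-only than in *Ly6c2*-only barcodes, and the median ratio was 0.178. *Plac8* was 386 against 5396 CPM (ratio 0.0714, 0.0632 to 0.0806), *Lyz2* 1631 against 9241 CPM and *Vcan*, a matrix proteoglycan, 1.31 against 261 CPM. *Chil3*, a chitinase-like protein of blood monocytes, had 0 UMIs in *Cd209a*-only barcodes and was 439 CPM in *Ly6c2*-only barcodes. Of 11 measured matrix and protease genes, 9 were lower. Thrombospondin 1 (*Thbs1*) was 81.0 against 3196 CPM (0.0254, 0.0194 to 0.0327) and *Spp1*, the matricellular protein osteopontin, 13.1 against 469 CPM. *Slfn4* and *Cfb* had 0 UMIs in *Cd209a*-only barcodes and 325 and 210.0 CPM in *Ly6c2*-only barcodes. Apolipoprotein E (*Apoe*) was 48.4 against 5301 CPM, so a macrophage lipid gene was abundant in *Ly6c2* barcodes of a gate that kept C1q low. The sums do not describe every *Ly6c2*-only barcode. Those with 1911, 2015 and 2142 UMIs had 0 UMIs of *Ccr2*, *Cd209a*, *H2-Aa* and *Lyz2*. They passed on *Ly6c2* at 5.23, 19.9 and 4.67 UMIs per 10000, and held *Plac8* at 26.2, 29.8 and 0. Whether such barcodes are monocytes was not tested.

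Of 10 measured pattern and Fc receptors, 8 were lower in *Cd209a*-only barcodes and 0 higher. The endotoxin co-receptor *Cd14* was 523 against 1929.9 CPM, the lectin *Clec4e* 71.9 against 702 CPM and the IgG receptor *Fcgr1* 36.6 against 498 CPM. Among 12 measured cytokine genes the ranges were mixed, with 2 higher (*Il6* and *Tnfsf9*) and 3 lower (*Il1rn*, *Tnf* and *Osm*). *Il1b*, the inflammasome cytokine, was abundant on both sides at 4279 and 6355 CPM (ratio 0.673, 0.641 to 0.707) and did not reach 2-fold.

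Interferon-stimulated genes marked the *Ly6c2* barcodes. Of 13 measured genes, 13 were at least 2-fold lower in *Cd209a*-only than in *Ly6c2*-only barcodes, with a median ratio of 0.106. *Rsad2* (viperin, an antiviral enzyme) was 24.8 against 827 CPM (0.0300, 0.0179 to 0.0475), *Irf7*, a factor that amplifies interferon responses, 54.9 against 840.1 CPM, and *Isg15*, a ubiquitin-like modifier, 62.7 against 624 CPM. These 3 reached 100 CPM on the *Ly6c2*-only side alone, so that minimum favoured this direction for such genes. Summed over 14 genes the level was 9670 CPM in *Ly6c2*-only, 1218 in *Cd209a*-only and 1121 in *Ccr2*-alone barcodes of mgR. The median per barcode was 88.6, 4.87 and 6.72 UMIs per 10000. Thinned to 1000 UMIs, 69 of 83 *Ly6c2*-only barcodes (83.1%, 73.3 to 90.5) still carried at least 3 of the genes, against 9 of 78 *Cd209a*-only (11.5%, 5.41 to 20.8) and 13 of 88 *Ccr2*-alone barcodes (14.8%, 8.11 to 23.9). The signal was therefore spread over most *Ly6c2* barcodes and not carried by a few.

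**Figure D3:**
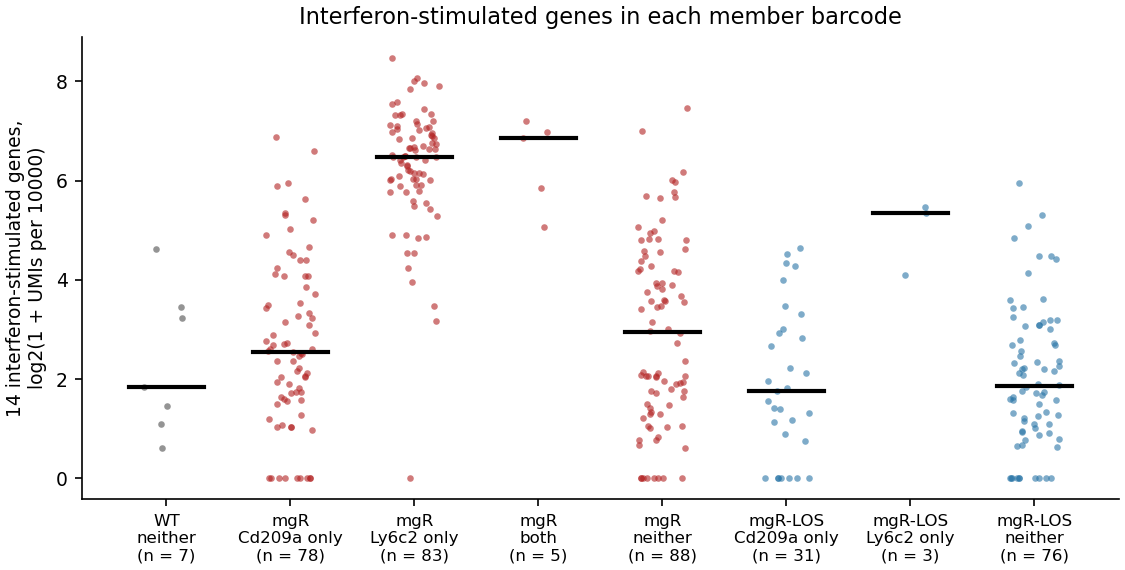
Summed UMIs of 14 interferon-stimulated genes in each member, as log2(1 + UMIs per 10000), by library and range (WT grey, mgR red, mgR-LOS blue), with black bars at the medians. The *Ly6c2*-only barcodes of mgR lie mostly above the other ranges with over 5 barcodes, and the mgR-LOS *Ly6c2*-only column holds 3 points.

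Plasmacytoid dendritic cells also carry *Ly6c2* and interferon genes, so their markers were read in the same barcodes. Of these markers, *Bst2* is also on the interferon-stimulated list. *Ly6c2*-only barcodes held *Siglech* at 172 CPM, *Ly6d* at 552 CPM, *Tcf4* at 299 CPM and *Bst2* at 1376 CPM, and 10 of 83 carried at least 3 of 5 such genes. Without every barcode that carried 3 or more, the *Ly6c2*-only level of the interferon-stimulated genes was 9586 CPM, the counts over the lists were 13 of 13 interferon-stimulated genes, 14 of 16 classical monocyte genes and 10 of 10 MHC class II genes, and 143 (8.57%) and 340 (20.4%) of all genes were higher and lower. The ranges therefore differed as much without these barcodes.

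The *Ccr2*-alone barcodes of mgR were set beside the *Cd209a*-only barcodes. Against them, 60 of 1451 genes (4.14%) were at least 2-fold higher and 78 (5.38%) at least 2-fold lower in *Cd209a*-only barcodes, with a median ratio of 0.989. Of 11 dendritic cell genes 7 were higher in *Cd209a*-only barcodes, among them *Mgl2* at 1006 against 95.4 CPM (ratio 10.6, 8.46 to 13.3) and *Napsa* at 616 against 132 CPM, while only 2 of 10 MHC class II genes (*H2-Oa* and *H2-Ob*) reached 2-fold. Of 13 measured matrix and protease genes 11 were lower in *Cd209a*-only barcodes. *Fn1* (fibronectin) was 414 against 2351 CPM, *Thbs1* 81.0 against 718 CPM and the elastase *Mmp12* 10.5 against 267 CPM. *Retnla* was 460.0 against 3505 CPM (0.131, 0.117 to 0.147) and *Lpl*, lipoprotein lipase, 179 against 1222 CPM. *Spp1* was 13.1 against 1089.8 CPM, but 80.4% of the *Spp1* UMIs of these *Ccr2*-alone barcodes came from 1 barcode, without which the level was 216 CPM. These are sums over barcodes: *Thbs1* was seen in 26 of the 88 *Ccr2*-alone barcodes and *Retnla* in 39.

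Members were then compared with the C1q-rich leukocytes of the same library. In mgR, 123 of 1607 genes (7.65%) were at least 2-fold higher in members and 184 (11.4%) at least 2-fold lower, with a median ratio of 1.03. All 7 measured MHC class II genes were higher, with a median of 2.98, and *H2-Aa* was 6754 against 2640.0 CPM (ratio 2.56, 2.50 to 2.61). The classical monocyte gene *Plac8* was 1638 against 108 CPM (15.2, 14.1 to 16.4), the aspartic protease *Napsa* 336 against 15.1 CPM, *Ifitm1* 399 against 8.01 CPM and the decoy interleukin 1 receptor *Il1r2* 119 against 13.9 CPM. The whole classical monocyte list, however, summed to 12542 CPM in members and 14335 CPM in C1q-rich leukocytes. Its top gene *Lyz2* was 5960 against 9676 CPM, the other way from *Plac8*. *Thbs1* was 1075 against 269 CPM. Of 11 macrophage genes 10 were lower in members and 0 higher. The 2 populations were split by C1q, in which resident macrophages are rich, so the macrophage counts of all libraries describe the selection. The folate receptor *Folr2* was 1.77 against 535 CPM, *Pf4* (platelet factor 4) 30.6 against 2002 CPM and *Apoe* 2012 against 17956 CPM. In mgR-LOS all 8 measured MHC class II genes were again higher and all 11 macrophage genes lower, where 8.36% and 15.8% of 1638 genes were higher and lower. In WT, with 7 members, 3 of 7 class II genes were higher (*H2-DMa*, *H2-DMb1* and *H2-DMb2*) and all 11 macrophage genes lower, where 16.7% and 20.3% of 1687 genes were higher and lower. *H2-Aa* was 6808 against 5493 CPM there (1.24, 1.14 to 1.35) and did not reach 2-fold.

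The ligands of CCR2 were found mainly outside the members. *Ccl2* was 55.4, 175 and 45.5 CPM in members of WT, mgR and mgR-LOS and 2678, 1929 and 1751 CPM in C1q-rich leukocytes. In smooth muscle barcodes *Ccl2* was 1.63, 41.7 and 18.6 CPM, and in barcodes rich in the fibroblast gene *Dcn* 59.0, 396 and 177 CPM. *Ccl7* followed the same order, at 0, 33.3 and 10.3 CPM in members, 1622, 1509 and 1255 CPM in C1q-rich leukocytes and 51.7, 223 and 118 CPM in *Dcn*-rich barcodes. In smooth muscle and *Dcn*-rich barcodes both ligands were highest in mgR, whereas in C1q-rich leukocytes they were highest in WT. Smooth muscle barcodes also served as the background level above, where *H2-Aa* and *Lyz2* were highest in mgR too. How much of the ligand RNA in smooth muscle and *Dcn*-rich barcodes came from other cells was not tested. Of 14 measured chemokine ligand genes, 9 were at least 2-fold lower in mgR members than in mgR C1q-rich leukocytes and 1 (*Ccl5*) was higher. The angiotensin receptor genes *Agtr1a*, *Agtr1b* and *Agtr2*, the first pair coding for the target of losartan, had 0 UMIs in members of all 3 libraries.

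The comparison of mgR with WT members rests on 7 WT barcodes. Of 1583 genes, 203 (12.8%) were at least 2-fold higher in mgR and 131 (8.28%) at least 2-fold lower, and for 180 and 124 of these the interval of the ratio left out 1. The median ratio was 0.962. With the rule applied to barcodes thinned to 2000 UMIs, which left 4 WT members, 153 genes were higher and 350 lower, so the balance of the directions rests on few WT barcodes. Every one of the 12 measured interferon-stimulated genes was higher in mgR, with WT sums under 3 UMIs set to 3, and the list of 14 summed to 609 CPM in WT and 3262 CPM in mgR. Most of the 12 reached 100 CPM in mgR alone, so that minimum favoured this direction, while the sum takes every gene of the list. The WT barcode with 3 plasmacytoid genes held 65.5% of the WT UMIs of this list (36 of 55), and the other 6 WT barcodes summed to 253 CPM. All 7 WT members were *Ccr2*-alone barcodes, and in that range of mgR the list summed to 1121 CPM. Of 12 classical monocyte genes 6 were higher (*Chil3*, *Ly6a*, *Hp*, *Ms4a4c*, *Ms4a6c* and *Ifitm6*) and 0 lower. Of 12 cytokine genes 9 were higher, among them *Il1b* at 2015 CPM in WT and 4382 CPM in mgR (2.17, 1.88 to 2.53) and *Tnf* at 0 and 151 CPM. *Ccl4*, a chemokine, was 0 in WT and 512 CPM in mgR (lower bound of the ratio 12.5), and *Ifitm1* was 0 and 399 CPM (lower bound 9.76). Without barcodes that carried 3 or more plasmacytoid genes, which left 6 WT members, 225 genes (13.8%) were higher and 142 (8.72%) lower. All 12 measured interferon-stimulated genes were then still higher, 6 of 12 classical monocyte genes were higher (*Plac8* now among them) and *Fn1* lower, and 7 of 12 cytokine genes were higher, without *Il1b*.

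MHC class II genes did not pass 2-fold between WT and mgR members. Of all genes 12.8% were higher and 8.28% lower, so few calls would fall in a list of 7. Of 7 measured genes 0 were higher and 0 lower (1 was lower, *H2-DMb2*, without the plasmacytoid marker barcodes), and *H2-Aa* was 6808 CPM (6281 to 7368) and 6754 CPM (6647 to 6862). In C1q-rich leukocytes of the same libraries 4 of 6 class II genes (*H2-Aa*, *H2-Ab1*, *H2-Eb1* and *Cd74*) were at least 2-fold lower in mgR than in WT, where 1.14% of 1490 genes were lower and 1.68% higher, and the summed level was 13959 against 29869 CPM. Whether the 2 populations differed in this was not tested. Lower in mgR members were *Retnla* (6487 CPM in WT and 1615 in mgR, 0.249, 0.228 to 0.272), the lysozyme *Lyz1* (2314 and 682 CPM), the Fc receptor-like gene *Fcrls* (886 and 209 CPM) and *Lpl* (1882 and 570.1 CPM). All 7 WT members lay in the *Ccr2*-alone range, which held 34.6% of mgR members. In the *Ccr2*-alone barcodes of mgR *Retnla* was 3505, *Lyz1* 1357 and *Lpl* 1222 CPM, not 2-fold below WT, and *Fcrls* was 408 CPM. A single WT barcode held 42.0% of the *Retnla* UMIs of that library, and 96.3% of its *Plac8* UMIs came from 1 barcode. Cell cycle genes were lower in mgR in 5 of 5 measured, with all *Mki67* UMIs of WT in 1 barcode. Without the plasmacytoid marker barcodes 1 such gene was measured, *Stmn1*, and it was higher, so the direction rests on 1 WT barcode. In all, 1 of 7 WT members, 16 of 254 mgR members and 6 of 110 mgR-LOS members carried at least 3 of them.

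Of the genes past 2-fold between mgR-LOS and mgR members, most were lower with losartan. Of 1513 genes, 37 (2.45%) were at least 2-fold higher in mgR-LOS and 108 (7.14%) at least 2-fold lower, with a median ratio of 0.957. All 12 measured interferon-stimulated genes were lower, with a median ratio of 0.135, and the list summed to 3262 CPM in mgR and 517 CPM in mgR-LOS. Most of the 12 reached 100 CPM in mgR alone, so that minimum favoured this direction, while the sum takes every gene of the list. *Rsad2* was 11.1 CPM in WT, 219 in mgR and 1.03 in mgR-LOS, *Irf7* was 22.1, 249 and 20.7 CPM, and *Isg15* was 22.1, 194 and 45.5 CPM. Each was highest in mgR. Thinned to 1000 UMIs, at least 3 of these genes were seen in 0 of 7 WT members, 94 of 254 mgR members (37.0%, 31.1 to 43.3) and 3 of 110 mgR-LOS members (2.73%, 0.566 to 7.76). Unthinned, the counts were 170 of 254 in mgR and 41 of 110 in mgR-LOS.

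Classical monocyte genes followed. Of 12 measured, 6 were lower in mgR-LOS (*Plac8*, *Chil3*, *Ly6a*, *Hp*, *Ms4a4c* and *Ms4a6c*), *Fn1* was higher, and the median ratio was 0.513. *Fn1* was also seen in 65.7% of thinned smooth muscle barcodes of mgR, and smooth muscle cells can transcribe it themselves, so how much of the *Fn1* in members came from other cells was not tested. *Plac8* (chr5:100553725-100572245) was 897 CPM in WT, 1638 in mgR and 78.6 in mgR-LOS (0.0480 against mgR, 0.0377 to 0.0602), and the WT level was 40.0 CPM without the barcode that held 96.3% of it. After thinning it was seen in 44.9% of mgR members (38.7 to 51.2) and 6.36% of mgR-LOS members (2.60 to 12.7), and in 0.674% and 0.167% of smooth muscle barcodes of those libraries. *Ly6a* was 399 CPM in mgR and 13.4 CPM in mgR-LOS, and *Chil3* was 0, 114 and 8.27 CPM in WT, mgR and mgR-LOS.

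Few MHC class II and dendritic cell genes passed 2-fold between mgR-LOS and mgR. Of all genes 2.45% were higher and 7.14% lower, so few calls would fall in lists of this size. Whether these lists differed from the classical monocyte list was not tested. Of 8 measured class II genes 0 were past 2-fold in either direction and the median ratio was 1.21, with *H2-Aa* at 7919 CPM in mgR-LOS (1.17 against mgR, 1.14 to 1.21) and *Cd74* at 17776 CPM (1.29, 1.27 to 1.32). Of 9 dendritic cell genes 1 was higher, the chemokine *Ccl17* at 32.4 CPM in mgR and 104 CPM in mgR-LOS, and 1 was lower, *Clec10a* at 217 and 102 CPM. *Mgl2* was 382 and 417 CPM (1.09, 0.966 to 1.23). *Ccr7* was 43.0 and 113 CPM (2.62, 1.97 to 3.48).

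Of 12 measured matrix and protease genes 2 were higher in mgR-LOS (*Timp2* and *Fn1*) and 4 lower. *Thbs1* (chr2:118111876-118127133) was 199 CPM in WT, 1075 in mgR and 181 in mgR-LOS (0.168 against mgR, 0.144 to 0.196), and *Tgfbi*, a collagen-binding protein induced by TGF-β, was 519.5 CPM in mgR and 245 CPM in mgR-LOS. Of 10 chemokine ligand genes 6 were lower, among them *Ccl4* at 512 and 61.0 CPM. Of 12 cytokine genes 2 were lower, *Tnf* at 151 and 37.2 CPM and *Osm* at 163 and 19.7 CPM, while *Il1b* at 4382 and 2870.3 CPM (0.655, 0.628 to 0.683) did not reach 2-fold. *Spp1* was 566 and 85.9 CPM, with 64.2% and 48.2% of the UMIs in 1 barcode of each library, and 204 and 44.6 CPM without those barcodes. *Saa3* was 133 and 0 CPM, and the antiprotease *Slpi* 153 and 1.03 CPM. For *Saa3*, 91.6% of the mgR UMIs lay in 1 barcode.

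Among the genes higher in mgR-LOS, *Retnla*, *Lyz1* and *Fcrls* were also higher in WT than in mgR. *Retnla* (chr16:48842551-48844461) was 6487 CPM (5973 to 7034) in WT, 1615 (1562 to 1668) in mgR and 6094 (5939.8 to 6252) in mgR-LOS, a ratio of 3.77 against mgR (3.62 to 3.94). *Lyz1* was 2314, 682 and 2300.4 CPM, and *Fcrls* 886, 209 and 614 CPM. The eosinophil-type ribonuclease *Ear2* was 199 CPM in mgR and 679 in mgR-LOS, and *Aldh1a2*, which makes retinoic acid, 35.9 and 163 CPM (4.55, 3.46 to 6.02). *Retnla* was seen after thinning in 17.3% of mgR members and 46.4% of mgR-LOS members, and in 0.322% and 1.27% of smooth muscle barcodes. The comparisons of mgR with WT and of mgR-LOS with mgR share the mgR library, so an inverse pattern between them is not independent evidence.

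Set beside WT, the members of mgR-LOS held 145 of 1565 genes (9.27%) at least 2-fold higher and 146 (9.33%) at least 2-fold lower, with a median ratio of 0.924. Only 2 interferon-stimulated genes reached 100 CPM in either library, and neither passed 2-fold. Of 8 classical monocyte genes 0 were higher and *Plac8* was lower, and of 8 MHC class II genes 0 passed 2-fold. Without the plasmacytoid marker barcodes *Plac8* was no longer lower, since the WT level fell to 40.0 CPM, and of 7 classical monocyte genes 1 was higher (*Ms4a6c*) and 0 lower. The cytokine genes *Il6*, *Ptgs2* and *Tnfsf9* were higher in mgR-LOS than in WT, *Ptgs2* (the prostaglandin synthase COX-2) at 77.5 CPM in WT, 642 in mgR and 536 in mgR-LOS. The interferon-stimulated list summed to 609 CPM in WT and 517 CPM in mgR-LOS, but to 253 CPM in the 6 WT barcodes with fewer than 3 plasmacytoid genes, so its order between these libraries rests on 1 barcode. *Ptgs2* was higher than WT in both mutant libraries.

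**Figure D4:**
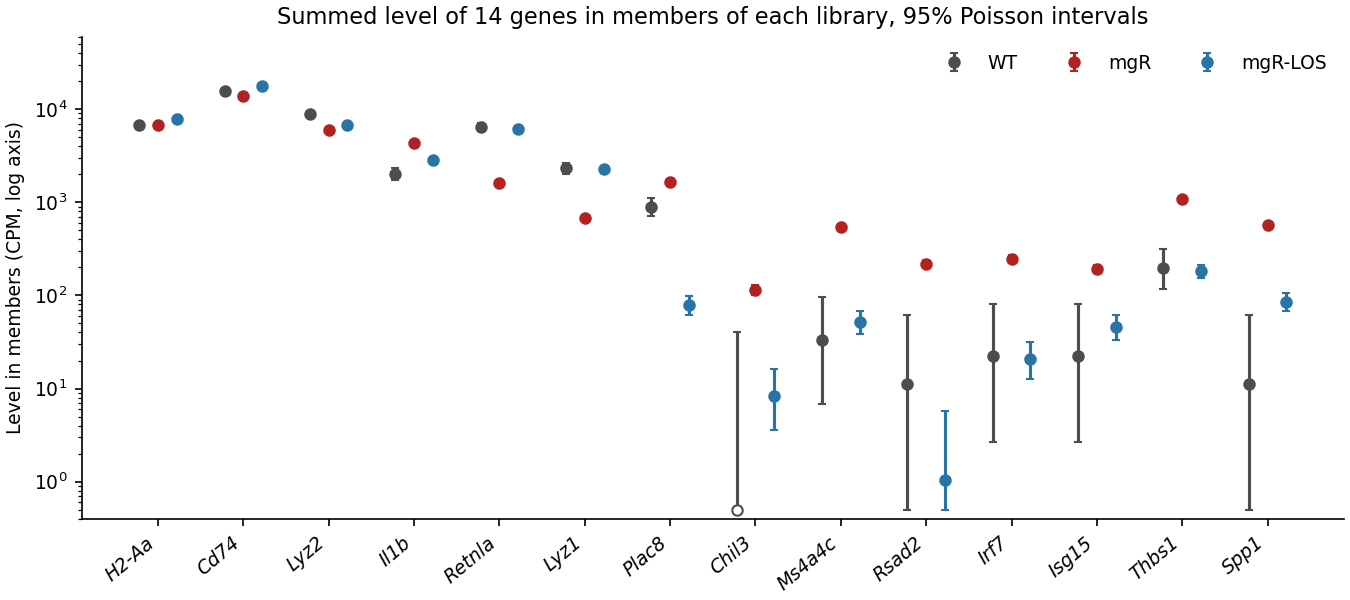
Level of 14 genes summed over the members of WT (grey), mgR (red) and mgR-LOS (blue), in CPM on a log axis, with exact Poisson 95% intervals. The open circle marks 0 UMIs and intervals reaching below the axis are cut there, and *Plac8*, *Chil3*, *Ms4a4c*, *Rsad2*, *Irf7*, *Isg15*, *Thbs1* and *Spp1* are highest in mgR while *Retnla* and *Lyz1* are lowest there.

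How much of the losartan difference lay with the *Ly6c2* barcodes was read by leaving them out. The number of genes then past 2-fold was 23 higher (1.59%) and 41 lower (2.83%) of 1449, with 3 interferon-stimulated genes above 100 CPM, of which 2 (*Bst2* and *Ly6e*) were lower. *Ly6e* was 451 CPM in mgR and 174 CPM in mgR-LOS (0.387, 0.325 to 0.458). *Plac8* was 388 and 47.3 CPM (0.122, 0.0880 to 0.165), *Thbs1* 431 and 147 CPM, and *Retnla* 2133 and 6189.9 CPM (2.90, 2.78 to 3.03). Fewer genes differed without *Ly6c2* barcodes, and *Plac8*, *Thbs1* and *Retnla* still did in the same direction.

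Within each remaining range the arms also differed. Among *Cd209a*-only barcodes 44 (3.14%) and 50 (3.57%) of 1401 genes were higher and lower in mgR-LOS. A list of 8 genes of *Ccr7*-bearing dendritic cells summed to 265 CPM in mgR and 557 CPM in mgR-LOS in this range. At least 3 of them were seen in 4 of 78 and 6 of 31 barcodes, and *Ccr7* was 88.9 and 323 CPM. The part of such cells in the differences was not tested. *Retnla* was 460.0 and 3139 CPM (6.82, 6.02 to 7.75), *Lyz2* 1631 and 4945 CPM (3.03, 2.80 to 3.28), *Plac8* 386 and 57.6 CPM and *Ccl4* 584 and 11.5 CPM, while *H2-Aa* was 10798 and 11516 CPM (1.07, 1.02 to 1.11). The *Retnla* sums came from a minority of these barcodes, 11 of 78 in mgR and 14 of 31 in mgR-LOS, with 25.3% and 35.6% of the UMIs in 1 barcode. *Lyz2* was uneven too, from 0 to 142 UMIs per 10000 over the mgR barcodes, and a mgR-LOS barcode held 235. The barcodes with 142 and 235 held *Cd209a* at 3.06 and 5.33 per 10000, against the limit of 3. The *Lyz2* sums thus do not describe every barcode of the range. Among *Ccr2*-alone barcodes 24 (1.62%) and 46 (3.1%) of 1484 genes were higher and lower, with *Retnla* at 3505 and 7338 CPM (2.09, 2.003 to 2.19) and *Plac8* at 390.1 and 43.4 CPM. The interferon-stimulated list summed to 1218 and 534 CPM in *Cd209a*-only barcodes and 1121 and 453 CPM in *Ccr2*-alone barcodes of mgR and mgR-LOS. The *Retnla* sum was thus higher, and the *Plac8* and interferon-stimulated sums lower, in each of these ranges with losartan.

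C1q-rich leukocytes did not share the lower interferon-stimulated level. Between mgR-LOS and mgR 7 (0.457%) and 11 (0.718%) of 1533 genes were higher and lower in C1q-rich barcodes. Of 7 measured interferon-stimulated genes 1 was higher, *Isg15* at 42.4 CPM in mgR and 149 CPM in mgR-LOS (3.51, 3.04 to 4.05), and 0 were lower, with a median ratio of 1.27. *Rsad2* was 69.6 and 128 CPM there. *Retnla* was 1371 and 3179 CPM (2.32, 2.26 to 2.38), *Plac8* 108 and 10.6 CPM and *Thbs1* 269 and 77.4 CPM, so these 3 genes pointed the same way as in members. The difference between the populations was not tested.

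**Figure D5:**
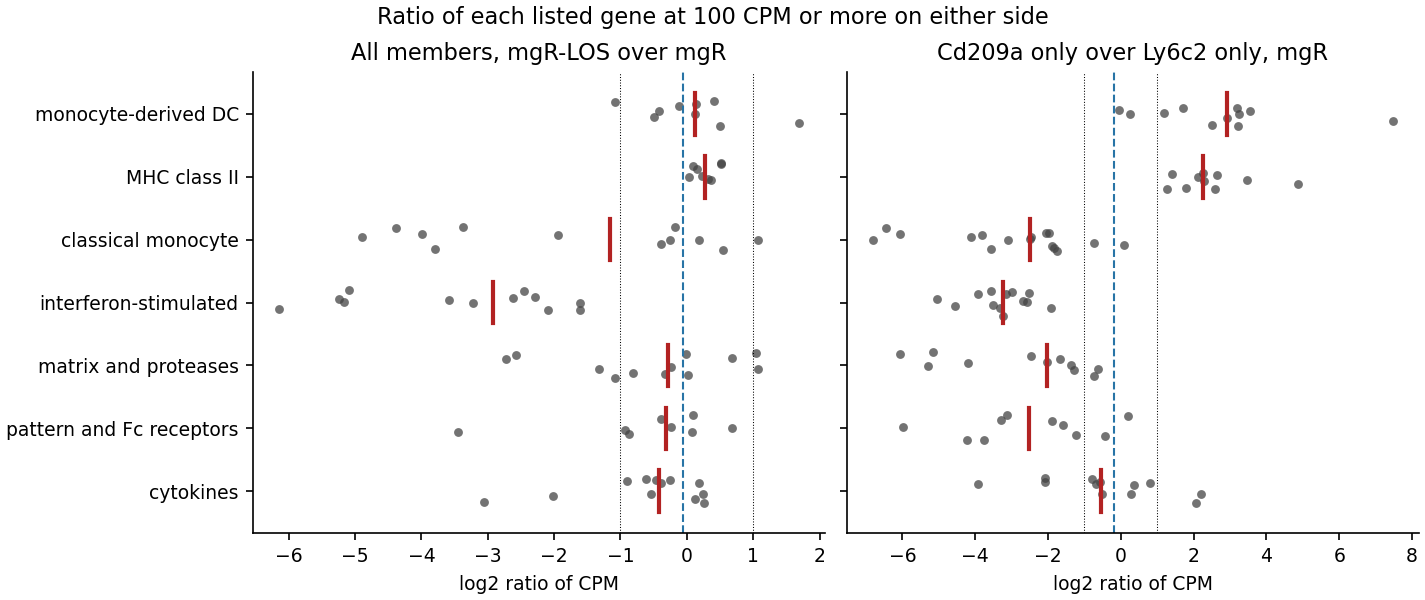
Log2 ratio of CPM for each listed gene with at least 100 CPM on either side, by gene list, for all members of mgR-LOS over mgR (left) and for *Cd209a*-only over *Ly6c2*-only barcodes of mgR (right). Points are genes, red bars list medians, the blue dashed line the median of all genes and dotted lines 2-fold; in the right panel classical monocyte and interferon-stimulated genes lie to the left and class II and dendritic cell genes to the right.

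Markers of other cell types were read in the same barcodes. The smooth muscle list summed to 620, 1297 and 1269 CPM in members of WT, mgR and mgR-LOS with *Acta2* as its top gene (299, 573 and 561 CPM), and the fibroblast list to 155, 430 and 357 CPM. The macrophage list summed to 598, 2905 and 1380 CPM and the endothelial list to 0, 23.96 and 6.21 CPM. Red cell genes summed to 0, 1048 and 41.4 CPM, and 96.8% of the *Hbb-bs* UMIs of mgR members lay in 1 barcode. The plasmacytoid list summed to 232, 838 and 115 CPM, the neutrophil list to 0, 57.2 and 7.24 CPM and the natural killer list to 0, 77.2 and 7.24 CPM. The T cell list summed to 44.3, 7.54 and 14.5 CPM with *Cd3d*, *Cd3e* and *Cd3g* at 0, and the B cell list to 44.3, 127 and 46.5 CPM with *Cd79a* and *Ms4a1* at 0. The rule itself set *Cd3d*, *Cd3g* and *Cd79a* to 0 and held the smooth muscle genes, *Dcn*, *S100a8* and *S100a9* low, whereas *Cd3e* and *Ms4a1* were not part of it. The list of conventional type 1 dendritic cells summed to 808, 747 and 995 CPM, and its defining genes *Xcr1* and *Clec9a* were at 44.3, 22.2 and 45.5 CPM and 22.1, 23.5 and 29.996 CPM. Without thinning, at least 3 genes of that list were seen in 37 of 88 *Ccr2*-alone barcodes of mgR and 31 of 76 of mgR-LOS. In mgR this also held for 26 of 78 *Cd209a*-only, 11 of 83 *Ly6c2*-only and 187 of 857 C1q-rich barcodes. The list summed to 1049 and 1196 CPM in these *Ccr2*-alone barcodes, with *Naaa* on top at 421 and 431 CPM. It summed to 456 and 628 CPM in *Cd209a*-only and *Ly6c2*-only barcodes of mgR. Such cells therefore cannot be told apart from the *Ccr2*-alone barcodes. Of these lists, the smooth muscle, fibroblast, macrophage, endothelial, red cell, plasmacytoid, neutrophil, natural killer and B cell lists were highest in mgR, as were the interferon-stimulated genes, while the T cell and type 1 dendritic cell lists were lowest there. The plasmacytoid and interferon-stimulated lists share *Bst2*, which gave 501 of the 838 CPM of the plasmacytoid list in mgR members. Apart from the plasmacytoid barcodes, the part of these lists in the differences was not tested.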

How the data were processed

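Single-cell suspensions of the ascending aorta were barcoded with the Chromium Next GEM 3' v3.1 chemistry and 1 library was made per arm. The values are UMI counts per gene and barcode in filtered matrices deposited by the authors, who ran Cell Ranger on mouse build mm10. The matrix headers name version 5.0.1 for WT and mgR and 6.0.1 for mgR-LOS, whereas the submitters' processing notes list 6.0.1 for each, so the losartan arm and the version cannot be told apart. The files held 32285 genes, and 7858, 10657 and 14663 barcodes with 83338726, 123956320 and 121436873 UMIs in WT, mgR and mgR-LOS. Gene coordinates are those of GENCODE on GRCm38.

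Barcodes were selected by the limits given above. The members and the gene lists were chosen with earlier results of these data known. UMIs were summed over the members of a library and scaled to CPM, and the ratio of 2 sums was given with its exact conditional binomial interval. Genes with at least 100 CPM on either side were compared, 2-fold was the size named, and a sum under 3 UMIs was set to 3. A gene that reached 100 CPM on 1 side only was thereby favoured to be higher on that side. CPM carries exact Poisson, a share Clopper-Pearson and a difference of shares Newcombe 95% intervals, all of counting error only. No p-value was computed, since each arm is 1 library. Beyond listed genes, those named were the 10 with the highest and the 10 with the lowest ratio by the interval bound nearest to 1, leaving out genes of the rule and mitochondrial, ribosomal and globin genes. Genes named for the comparisons within a range or with *Ccr2*-alone barcodes were chosen after their values were seen. Thinning drew 1000 UMIs per barcode, and barcodes with fewer were left out. Doublets were scored by a nearest-neighbour comparison with simulated doublets and kept: 230, 522 and 1295 barcodes were called, of which 0, 5 and 4 were members. The libraries of WT and mgR shared 22 barcodes, WT and mgR-LOS 29, and mgR and mgR-LOS 46, and 0 members had a shared barcode. The ratio and interval code was tested on simulated data. Python 3.11.15, numpy 2.4.6, pandas 2.3.3, scipy 1.17.1, scikit-learn 1.9.0 and matplotlib 3.10.9 were used.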

Additional observations from a re-analysis of the deposited data

Results flagged for a closer look

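Among the 2581 mgR barcodes that the limits on genes and mitochondrial share left out, 12 met the marker limits of the members (0.465%, exact 95% interval 0.240 to 0.811). The WT library, as the control, held 0 of 2497 such barcodes. The mgR-LOS library held 4 of 1942 (0.206%, 0.0561 to 0.527). Of the 12 barcodes of mgR, 10 were above the mitochondrial limit, 2 had too few genes and 1 had too many, with more than 1 reason possible for a barcode, and their median was 2484.5 UMIs. They were flagged because a signal appeared in barcodes that no comparison used, above its level in the WT library.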

How the results depend on the processing

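No paired analysis was possible because each arm is 1 pooled library with no replicate numbers to match. The differences in member share kept their direction under the settings tried, while that of the *Cd209a*-only share, whose interval included 0, was 1.05 points with the rule applied after thinning. The settings were a lower mitochondrial limit, fewer genes per barcode, called doublets left out, a higher marker minimum, a lower C1q limit, the rule applied after thinning, shallow or shared barcodes left out, other scalings and a lower CPM minimum. With at most 5% mitochondrial UMIs the member share of retained barcodes differed by 4.07 points between mgR and WT and by -3.05 points between mgR-LOS and mgR. With the rule applied after thinning to 2000 UMIs, which left 208 mgR and 4 WT members, the difference between mgR and WT was 2.59 points of retained and 14.2 points of *Ptprc* barcodes, and 503 genes were past 2-fold between mgR and WT (153 higher and 350 lower) in place of 334 (203 higher and 131 lower), and 460 between mgR-LOS and WT in place of 291. The latter count was 446 with a C1q limit of 5. Scaling without technical genes gave 511 genes for mgR over WT and 449 for mgR-LOS over WT. A minimum of 50 CPM, which adds genes by construction, gave 683 for mgR over WT, 258 for mgR-LOS over mgR, 625 for mgR-LOS over WT, 532 for members over C1q-rich leukocytes and 836 for *Cd209a*-only over *Ly6c2*-only barcodes, against 334, 145, 291, 307 and 472. Centring on the median ratio moved the split of mgR-LOS over WT from 49.8% to 62.2% higher. Leaving out *Ly6c2* members, a setting added after the data were seen, left 64 genes past 2-fold between mgR-LOS and mgR. Apart from the settings whose construction is stated, the cause was not tested.

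Of 220 values of the 20 genes named for mgR over WT, 181 moved by less than their interval, 34 moved further and 5 reversed. The reversed ones were *Hist1h2ae* at 2.04 and *Hmgb2* at 2.99 with a marker minimum of 5, *Hist1h2ae* at 1.49 with thinning, and *Hist1h2ae* at 2.12 and *Hmgb2* at 3.27 without plasmacytoid marker barcodes, a setting added after the data were seen. Of 240 values for mgR-LOS over mgR, 199, 39 and 2 did so. The 2 were *Ly6d*, at 1.34 without *Ly6c2* members and 1.67 without plasmacytoid marker barcodes, where mgR-LOS had 0 UMIs and was set to 3, so no direction can be read.

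Depth limits the WT arm most: 3 UMIs are 33.2 CPM there, and 1 barcode can set a level. A single library per arm leaves mice, digestion, capture and sequencing together with genotype or losartan, and these cannot be told apart. Background was read from smooth muscle barcodes, where free RNA and doublets were not told apart, and was not subtracted.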

Other observations

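Immediate early and stress genes, which code for fast-induced factors such as *Fos* and *Jun* and for heat shock proteins, were measured in full among the members. Of 14 genes, 9 were at least 2-fold higher in mgR than in WT members and 8 in mgR-LOS than in WT members, and 0 were lower in either, where 12.8% and 9.27% of all genes measured were higher. The WT side is 7 barcodes, and without the plasmacytoid marker barcodes 9 and 6 of the 14 were higher. *Fos* was 354 CPM in WT, 1110.1 in mgR and 1037 in mgR-LOS, and the heat shock gene *Hspa1a* was 111, 451 and 566 CPM. Between mgR-LOS and mgR only *Ier3* passed 2-fold, at 478 CPM in mgR and 149.98 CPM in mgR-LOS.

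Among chemokine receptors *Cxcr4*, the receptor that holds leukocytes in the marrow, was 22.1, 241 and 157 CPM in WT, mgR and mgR-LOS members. Of 8 adhesion genes measured between mgR-LOS and mgR 0 passed 2-fold, and of 11 lineage factors 0 did, where 2.45% of all genes were higher and 7.14% lower, so that few calls would fall in lists of this size. Among the factors, *Irf8* was 196 and 212 CPM and *Klf4* 341 and 519 CPM. *Nr4a1*, the factor of patrolling monocytes, was 443, 598 and 746 CPM, while the patrolling receptor *Cx3cr1* stayed low at 22.1, 55.5 and 13.4 CPM.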
